A study of Mus musculus with 29 samples.

Results

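Stmn1, Stmn2, Stmn3, Stmn4, Dcx, Tubb3, Map1b, Mapt, Gap43 and Fscn1 are 10 genes of the stathmin family and of the neurite cytoskeleton, and are described here in mouse neuroblastoma and bone marrow. They were taken by name, as a list made with earlier results of these data known, from the 18193 genes that the array represented. Every probe set (a group of short probes for a transcript) annotated to exactly 1 of the symbols was taken, which gave 24 probe sets, and 7 of the 10 genes had more than 1. Where a gene had several, the one that was brightest on average across the arrays gave its value.

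The series surveyed spontaneous tumours of TH-MYCN mice, in which a tyrosine hydroxylase promoter drives MYCN in the sympathoadrenal lineage, and compared them by the genotype of caspase-8, a protease that death receptors activate. The strain was 129X1/SvJ in all groups. There were 17 primary abdominal tumours labelled deficient for caspase-8 and 7 labelled wild type, and 3 deficient and 2 wild type bone marrow samples, all labelled with a TH-MYCN genotype. Each sample had 1 array. The labels give no ages and do not say how caspase-8 was lost, whether marrow donors bore tumours, or whether every sample is its own animal. The p-values therefore reflect sample-to-sample spread, which may be technical.

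Microtubules are polymers of alpha and beta tubulin that grow and shrink at their ends and carry transport along axons and dendrites. Stathmins bind free tubulin dimers and promote shrinkage, whereas doublecortin, MAP1B and tau bind the polymer and stabilise it. At the tip of a growing neurite, the growth cone, microtubules meet bundles of actin. Neuroblastoma arises from precursors of sympathetic neurons, which extend neurites as they mature.

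Values were on a log2 scale after RMA, on which 1 unit is a factor of 2, and ran from 1.87 to 14.4 over the series. Correlations across probe sets were between 0.972 and 0.993 within groups and between 0.806 and 0.865 for tumour against marrow. Th, the tyrosine hydroxylase that marks catecholamine-making cells, averaged 10.97 ± 0.74 in tumours and 4.22 ± 0.43 in marrow (SD, n = 24 and 5), and Dbh, a later enzyme of that pathway, 8.20 ± 0.59 in tumours and 6.22 ± 0.21 in marrow. Mpo, of granulocytes, averaged 3.37 ± 0.20 in tumours and 11.69 ± 0.24 in marrow. Cd79a, of B cells, averaged 3.70 ± 0.22 in tumours and only 5.20 ± 0.54 in marrow. Casp8 averaged 5.62 ± 0.44 in deficient and 5.88 ± 0.57 in wild type tumours (SD, n = 17 and 7), a difference of -0.26 (SE 0.20; limma adjusted p = 0.9997), so these arrays did not separate the genotypes by Casp8. In marrow it averaged 9.14 ± 0.12 in deficient and 9.46 ± 0.23 in wild type samples (SD, n = 3 and 2). Whether the probes lie in the deleted part was not tested. Mycn, measured as the mouse gene, averaged 7.54 ± 0.18 in deficient and 7.58 ± 0.17 in wild type tumours.

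The gene table of assembly GRCm38.p6 places Stmn1 at chr4:134468320-134473843, Stmn2 at chr3:8509527-8561604, Stmn3 at chr2:181306459-181314500 and Stmn4 at chr14:66344210-66361680. It places Dcx at chrX:143855842-143933396, Tubb3 at chr8:123411553-123422015, Map1b at chr13:99421464-99516602 and Mapt at chr11:104229409-104332090. Gap43 lies at chr16:42248552-42340651 and Fscn1 at chr5:142960355-142973189. RefSeq promoter sequence of the same assembly matched 5 of the 10 genes, Stmn3, Dcx, Tubb3, Map1b and Fscn1. Fscn1 and Map1b are shown because their levels varied together across tumours, Tubb3 because of its large tissue difference, and Stmn3 as the stathmin with an entry. Each run is the 250 bases before the gene's start, 5′ to 3′ on the gene's strand, with motif matches in capitals.
Fscn1, chr5:142960105-142960354, plus strand: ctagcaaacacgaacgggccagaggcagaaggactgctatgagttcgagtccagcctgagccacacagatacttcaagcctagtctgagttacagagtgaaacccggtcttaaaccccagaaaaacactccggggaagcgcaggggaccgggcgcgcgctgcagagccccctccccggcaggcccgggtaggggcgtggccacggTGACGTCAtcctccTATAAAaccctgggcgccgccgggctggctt
Map1b, chr13:99516603-99516852, minus strand: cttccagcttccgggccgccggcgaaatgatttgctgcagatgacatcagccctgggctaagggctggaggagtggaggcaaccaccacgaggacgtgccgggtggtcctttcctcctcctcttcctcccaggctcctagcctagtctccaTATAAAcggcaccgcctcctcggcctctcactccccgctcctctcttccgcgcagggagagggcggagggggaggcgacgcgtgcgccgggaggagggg
Tubb3, chr8:123411303-123411552, plus strand: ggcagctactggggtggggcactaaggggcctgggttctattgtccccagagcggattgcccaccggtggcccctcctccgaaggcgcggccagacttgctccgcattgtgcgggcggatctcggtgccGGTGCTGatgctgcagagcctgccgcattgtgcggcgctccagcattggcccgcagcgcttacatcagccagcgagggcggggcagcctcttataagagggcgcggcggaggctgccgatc
Stmn3, chr2:181314501-181314750, minus strand: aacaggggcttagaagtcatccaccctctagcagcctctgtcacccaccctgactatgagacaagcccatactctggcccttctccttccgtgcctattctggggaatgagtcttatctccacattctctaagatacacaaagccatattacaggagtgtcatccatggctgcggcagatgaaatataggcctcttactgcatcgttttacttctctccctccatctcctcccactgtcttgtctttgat

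The capitals mark matches to 4 motifs searched on both strands. The TATA box was searched as TATAAA. The E-box that MYC proteins bind was searched as CACGTG. The cAMP response element was searched as TGACGTCA. The core of the REST element, to which a repressor of neuronal genes binds, was searched as CAGCACC, and no matches overlapped in the windows shown. TATAAA began 31 bases before the start of Fscn1 and 99 before that of Map1b, and 98 and 193 before the 2 listed starts of Dcx. Of 32851 listed promoters, 12.4% held it in the same window. TGACGTCA lay 45 bases before the Fscn1 start and was held by 1.55% of promoters. The REST letters lay 121 bases before the Tubb3 start, on the other strand, and were held by 5.73%. CACGTG, held by 6.02%, was in none of these windows, and the Stmn3 window held none of the 4 motifs. The Fscn1, Map1b and Tubb3 windows had 62.4%, 66.4% and 68.0% G or C, and the Stmn3 window had 48.8%.

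The first question was how the genes stood in tumours against marrow. Levels of all 10 genes were higher in tumours in limma's test across all genes (adjusted p at most 2.3e-08), where 76.4% of genes were called and 34.2% were called higher. The differences ran from 0.87 log2 units for Stmn1 to 8.63 for Fscn1. Their median was 6.17, against -0.10 over all genes, of which 6218 were called higher and 7681 (42.2%) lower. With each array centred on its median, the median over all genes moved by -0.29, the calls became 4711 higher and 10602 lower, and the 10 genes' median was 5.88. For all 10 genes the lowest tumour was above the highest marrow sample, which held for 20.9% of genes. An exact two-sided permutation test over the samples gave its smallest possible p of 8.421e-06 for each (24 against 5). This p follows from the lack of overlap and is no further evidence. A difference of at least 5 units, seen in 8 of the 10 genes, was seen in 0.962% of genes. Several marrow levels lay low on the array's scale, with 9.22% of genes lower than Tubb3 in marrow, 12.3% lower than Stmn2, 18.1% lower than Dcx and 22.4% lower than Fscn1. No detection calls were used here, so where a marrow level is background, the difference and its rank depend on the array's floor and can understate the true ratio. In tumour and marrow samples, fewer cells of a type and less RNA per cell cannot be told apart.

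**Figure D1:**
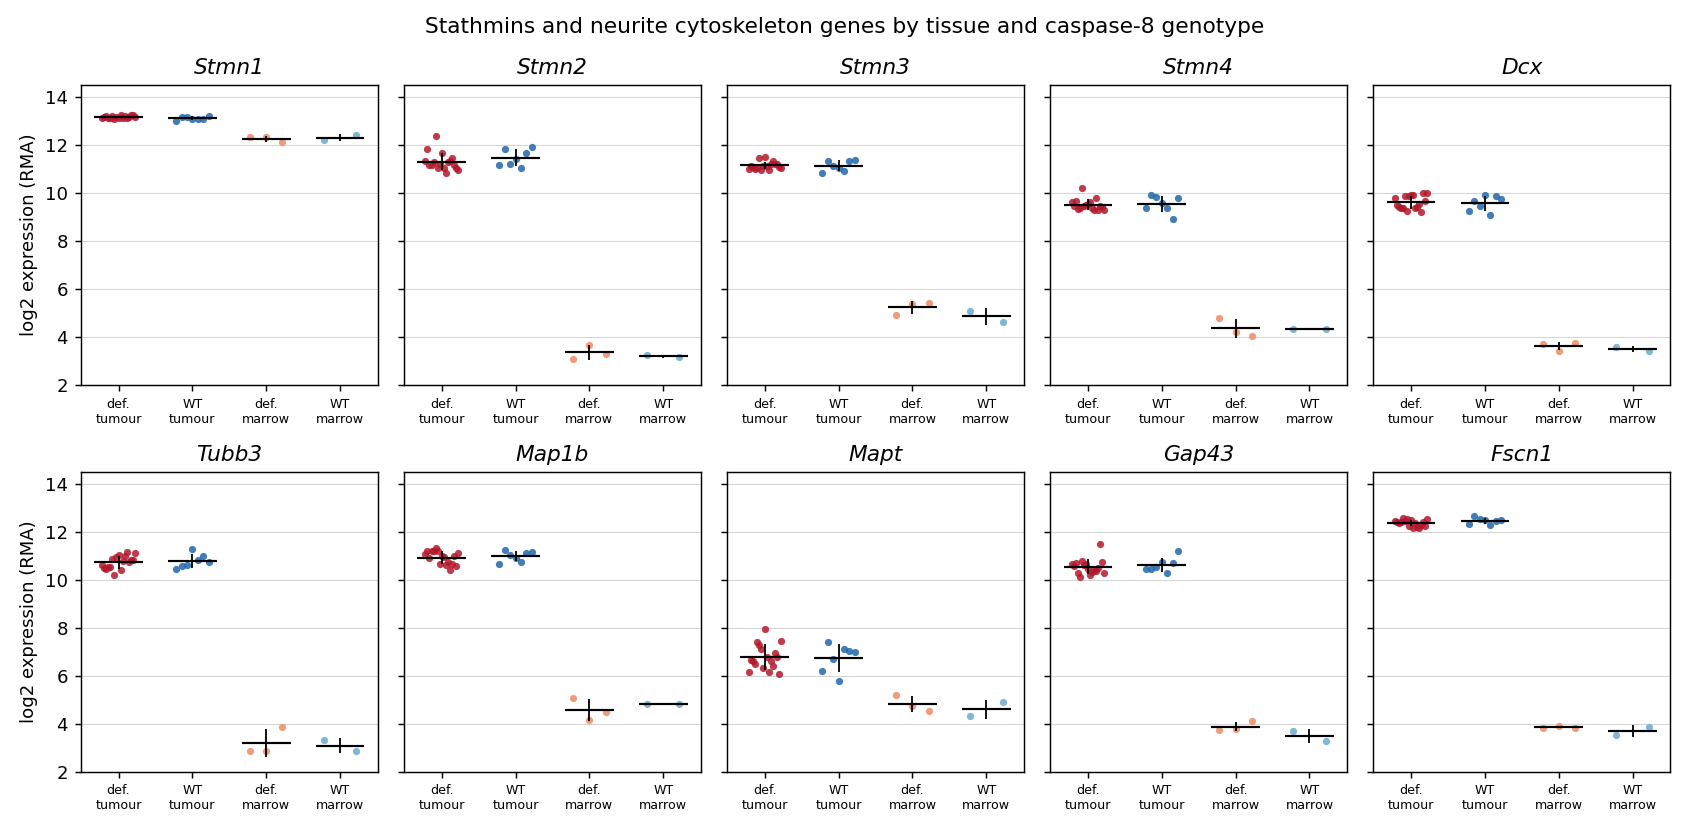
Log2 expression (RMA, y axis) of each gene in every sample of the 4 groups (def., caspase-8 deficient, 17 tumours and 3 marrow samples; WT, wild type, 7 tumours and 2 marrow samples); horizontal lines are means and vertical lines SD. Every tumour lies above every marrow sample in all 10 panels, with the narrowest gaps for Mapt (lowest tumour 5.77, highest marrow sample 5.20) and Stmn1 (13.02 and 12.41).

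Cell type markers moved with this contrast, and their part in it was not tested. The sympathoadrenal markers (15 of 15 measured) had list means (log2) from 8.96 to 9.90 in tumours and from 5.00 to 5.16 in marrow. Granulocyte markers (11 of 12 measured) had list means from 3.59 to 5.06 in tumours and from 12.05 to 12.35 in marrow. Cell cycle genes (19 of 20 measured) had close list means, from 10.01 to 10.50 in tumours and from 10.35 to 10.67 in marrow. Schwann and glia markers (12 of 14 measured) had list means from 4.25 to 4.62 in tumours and from 4.84 to 5.15 in marrow.

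Stmn1 encodes stathmin, a soluble phosphoprotein that is also abundant in dividing cells outside the nervous system. Deficient tumours had a lowest, median and highest level of 13.07, 13.16 and 13.26, and wild type tumours of 13.02, 13.09 and 13.21. The deficient marrow samples had 12.33, 12.33 and 12.11, and the wild type samples 12.19 and 12.41. It was thus near the top of the array's scale in both tissues, and its tissue difference of 0.87 (SE 0.049; limma adjusted p = 7.1e-16) was the smallest of the 10. It ranked 3511 of 18193 genes from the most tumour-high down. Where arrays were centred, the difference was 0.58. Whether differences are compressed there was not tested. A separate Stmn1 probe set had 10.58 ± 0.15 in tumours and 9.24 ± 0.23 in marrow (SD, n = 24 and 5), a difference of 1.34.

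Stmn2 encodes SCG10, a membrane-bound stathmin of growth cones, and it was the stathmin with the largest tissue difference. Its levels were 10.85, 11.20 and 12.36 (lowest, median, highest) in deficient tumours and 11.04, 11.42 and 11.92 in wild type tumours. The deficient marrow samples had 3.08, 3.69 and 3.30, and the wild type marrow samples 3.25 and 3.16. The gap between the tissues was far wider than the range within either. The difference of 8.10 (SE 0.17; limma adjusted p = 1.5e-26) ranked 8 of 18193 genes from the most tumour-high down, and 26 by size in either direction. A second Stmn2 probe set gave 6.32 and followed the first across tumours (r = 0.90, n = 24 tumours).

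Stmn3 and Stmn4 encode the other neuronal stathmins, which are likewise attached to Golgi and vesicle membranes. Stmn3 had 10.96, 11.11 and 11.51 in deficient tumours and 10.84, 11.14 and 11.37 in wild type tumours. Its marrow levels were 4.94, 5.37 and 5.41 in deficient samples and 5.10 and 4.62 in wild type samples. The ranges of the genotypes overlapped in tumours, which averaged 6.09 units above marrow (SE 0.099; limma adjusted p = 2.4e-29). Both Stmn3 probe sets gave nearly the same difference, 6.06 and 6.16, and agreed across tumours (r = 0.90). Stmn4 had 9.30, 9.46 and 10.21 in deficient tumours and 8.91, 9.58 and 9.90 in wild type tumours. In marrow it had 4.79, 4.23 and 4.05 in deficient samples and 4.33 and 4.32 in wild type samples. Its difference was 5.18 (SE 0.13; limma adjusted p = 3.0e-24).

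Tubb3, the beta tubulin isotype of neurons, had the third largest difference of the 10 genes. Deficient tumours had 10.19, 10.78 and 11.14 and wild type tumours 10.46, 10.73 and 11.28. The marrow samples had 2.88, 2.86 and 3.86 (deficient) and 3.32 and 2.86 (wild type), with 1 deficient sample above the rest. The difference of 7.61 (SE 0.15; limma adjusted p = 3.7e-27) ranked 14 of 18193 from the most tumour-high down, and 39 by size in either direction.

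Doublecortin, MAP1B and tau bind along the microtubule wall. Dcx, which is expressed in migrating and newly formed neurons, had 9.21, 9.56 and 9.99 in deficient tumours and 9.08, 9.68 and 9.90 in wild type tumours. Its marrow levels were 3.70, 3.44 and 3.74 (deficient) and 3.60 and 3.42 (wild type). Map1b, of growing axons, had 10.39, 10.97 and 11.33 in deficient tumours and 10.68, 11.04 and 11.22 in wild type tumours, against 5.08, 4.15 and 4.49 in deficient marrow and 4.83 and 4.82 in wild type marrow. The tissue differences were 6.02 for Dcx (SE 0.13; limma adjusted p = 6.7e-26) and 6.25 for Map1b (SE 0.14; limma adjusted p = 4.5e-26).

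Mapt, which encodes the axonal protein tau, had the smallest difference of the microtubule-binding genes. Its levels were 6.06, 6.65 and 7.96 in deficient tumours and 5.77, 7.01 and 7.39 in wild type tumours. Deficient marrow had 5.20, 4.76 and 4.54 and wild type marrow 4.32 and 4.89. The lowest tumour was less than 1 unit above the highest marrow sample, and the difference of 2.04 (SE 0.25; limma adjusted p = 2.3e-08) ranked 1312 from the most tumour-high down. The other Mapt probe sets gave 2.97, 2.82 and 0.46.

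Gap43 and Fscn1 act at the growth cone. Gap43, a membrane protein of growing axons and a protein kinase C substrate, had 10.10, 10.50 and 11.47 in deficient tumours and 10.28, 10.51 and 11.18 in wild type tumours. Its marrow levels were 3.76, 3.79 and 4.10 in deficient samples and 3.69 and 3.28 in wild type samples. The tissue difference was 6.89 (SE 0.15; limma adjusted p = 2.4e-26). Fscn1, or fascin, which bundles the actin of filopodia, had 12.14, 12.39 and 12.57 in deficient tumours and 12.29, 12.47 and 12.65 in wild type tumours. Its marrow levels were 3.84, 3.93 and 3.83 (deficient) and 3.53 and 3.88 (wild type). No tumour came within 8 units of a marrow sample, and the difference of 8.63 (SE 0.073; limma adjusted p = 6.4e-36) ranked 4 of 18193 from the most tumour-high down, and 16 by size in either direction.

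The size of several differences rested on which probe set stood for the gene. For Fscn1 the chosen probe set differed by 8.59 between the plain tissue means, whereas the remaining sets differed by 0.74, -0.02 and 1.16, and the mean of its probe sets by 2.61. The Dcx sets differed by 6.02, 4.88, 0.67 and 0.07, with a mean over sets of 2.93. The Map1b sets differed by 6.27, 5.35 and 1.32. With probe sets averaged, all 10 genes were still called higher in tumours, at differences from 1.10 for Stmn1 to 7.61 for Tubb3. Taking the set of highest mean over samples of which 24 of 29 were tumours favours sets that are bright in tumours. The Stmn1, Stmn3 and Fscn1 sets chosen carry the suffixes _s_at, _x_at and _a_at. The maker gives these to sets whose probes can match more than 1 transcript, of the same gene for _a_at and possibly of others for the rest.

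**Figure D2:**
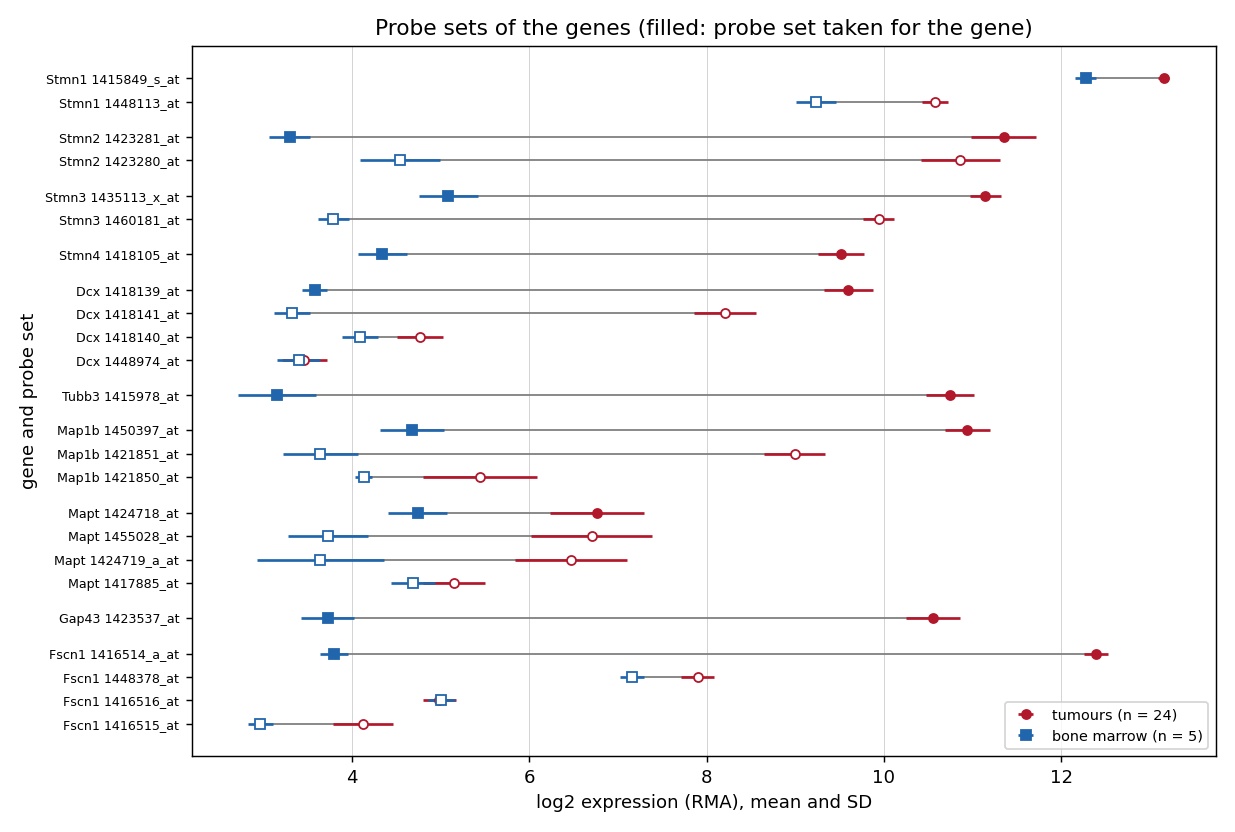
Mean log2 expression (RMA, x axis) with SD of each of the 24 probe sets in 24 tumours (circles) and 5 marrow samples (squares); filled symbols mark the set taken for the gene. All sets of Stmn1, Stmn2, Stmn3 and Mapt have a higher mean in tumours, whereas 1 Dcx set and 1 Fscn1 set have nearly equal means in both tissues (differences of 0.07 and -0.02).

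Other genes of the same machinery, from lists chosen with earlier results of these data known, were set against the same contrast, in which 34.2% of all genes were called higher and 42.2% lower. Of 25 further microtubule-associated and motor genes, 21 were higher, 2 lower and 2 not called, with a median of 1.99. The largest were the kinesin Kif5c at 7.55, the dendritic protein Map2 at 7.42, Crmp1, a semaphorin signalling mediator, at 6.18 and the kinesin Kif21a at 6.06 (log2 difference). Of 18 tubulins and tubulin cofactors, 11 were higher and 7 lower, with a median of 0.79. Tubb2b, a neuronal isotype like Tubb3, was higher by 7.21 and Tuba1a by 3.01. Tubb1, the beta tubulin of platelets and their precursors, differed by -6.89 and Tuba4a by -3.08.

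Of 25 growth cone and actin genes, 15 were higher, 6 lower and 4 not called, with a median of 2.12. The 21 called are close to the 76.4% called among all genes. Snap25, a vesicle fusion protein, was higher by 8.01, the profilin Pfn2 by 7.34, Rtn1 by 6.84 and Rufy3 by 6.41. The other fascins had differences of -0.15 (Fscn2, not called) and -0.39 (Fscn3, called lower). Of 21 kinases, phosphatases and severing enzymes of microtubules, 16 were higher, 3 lower and 2 not called, with a median of 1.65. Mapk10, a neuronal JNK, was higher by 6.57, the phosphatase subunit Ppp2r2b by 5.40, Camk2b by 4.63 and Cdk5r1, the activator of Cdk5, by 3.37.

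The second question was whether caspase-8 genotype changed these genes. In tumours 0 of the 10 genes were called by limma, where 0% of all genes were called. At an unadjusted p under 0.05 there were again 0 of 10, against 583 genes or 3.2% in all. The differences, deficient minus wild type, ran from -0.16 for Stmn2 (SE 0.15, 95% interval -0.48 to 0.15) to 0.05 for Dcx (SE 0.12, -0.21 to 0.30), each with adjusted p = 0.9997. The tightest interval was that of Stmn1, -0.03 to 0.12, and the widest that of Mapt, -0.44 to 0.51. The levels of the genotypes overlapped for all 10 genes. Exact two-sided permutation tests gave their lowest p for Stmn1, 0.1003, and Fscn1, 0.1478.

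The tumours' titles carry numbers in a lower and a higher series, whose meaning the labels do not give. In the lower series (7 deficient and 3 wild type tumours) Map1b differed by 0.18 and Stmn2 by 0.05. In the higher series (10 and 4) the same differences were -0.21 and -0.32, and 0 of the 10 genes were called in either series. Endothelial markers (15 of 15 measured) averaged 6.32 ± 0.37 in deficient and 5.89 ± 0.43 in wild type tumours, and the signal of array controls was more skewed to the 3′ end in deficient tumours (0.76 ± 0.18, against 0.62 ± 0.15 in wild type tumours; SD, n = 17 and 7). Their part in the genotype values was not tested.

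In marrow 0 of the 10 genes were called and 0 had an unadjusted p under 0.05, where the shares of all genes were 0.022% and 4.05%. The differences ran from -0.25 for Map1b (95% interval -0.89 to 0.39) to 0.40 for Gap43 (SE 0.21, -0.10 to 0.89; limma adjusted p = 0.9996). With 3 against 2 samples the intervals were wider than in tumours for all 10 genes. The interaction test, of whether the genotype difference differs between tissues, called 0 of the 10 genes (0 at an unadjusted p under 0.05), where 0.319% of genes were called. Gap43 had the most negative value (-0.48, SE 0.29) and Stmn3 the lowest adjusted p (0.698 in limma). The 4 cytoskeleton lists also held 0 genes that limma called by genotype in either tissue, and 1 gene in tumours and 2 in marrow had an unadjusted p under 0.05.

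**Figure D3:**
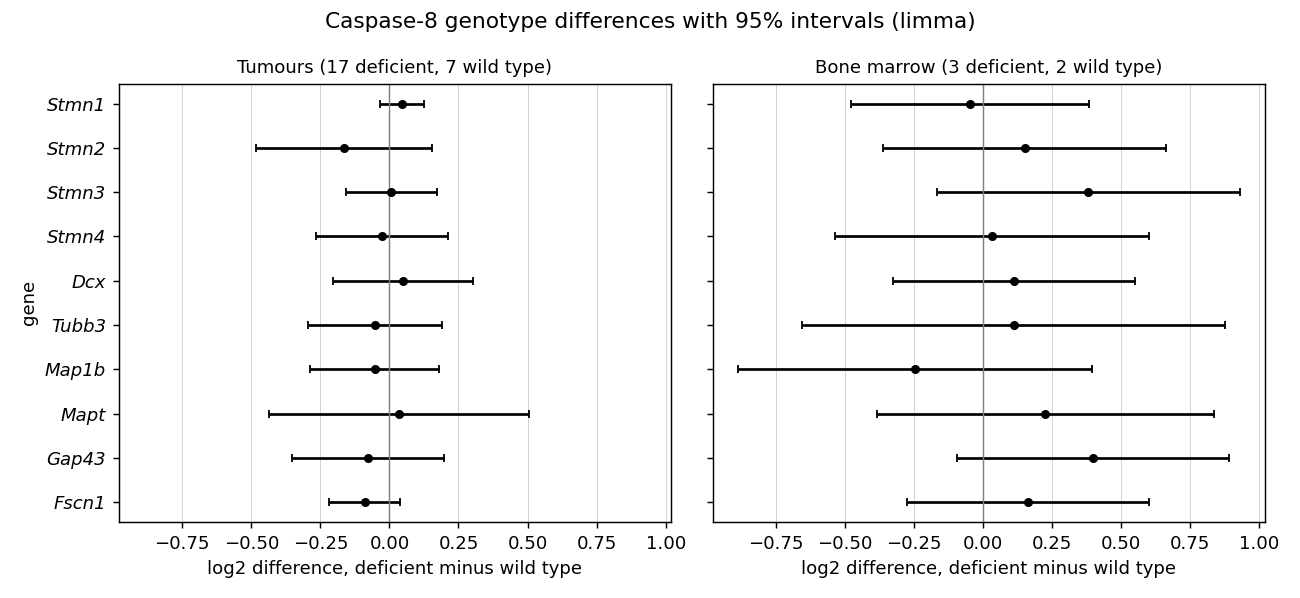
Log2 difference, deficient minus wild type (x axis), with 95% intervals from limma, for each gene in tumours (left, 17 deficient and 7 wild type) and marrow (right, 3 deficient and 2 wild type). All 20 intervals include 0, and those in marrow reach from -0.89 to 0.93.

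The third question was how single tumours varied. Mapt had the largest SD of the 10 genes, with a value of 0.53 over the 24 tumours, larger than that of 94.1% of genes. Stmn2 followed with 0.36, then Gap43 with 0.30, Dcx with 0.28, Tubb3 with 0.27, and Stmn4 and Map1b with 0.26. From Map1b to Stmn2, between 71.8% and 86.2% of genes had a smaller SD. Stmn3 had 0.17 and Fscn1 0.14, below the median gene. SD depends on level, and among genes of like level (within 5 percentile points) the order was different. There, 96.5% of genes had a smaller SD than Stmn2, 93.4% than Gap43, 91.0% than Tubb3, 89.6% than Map1b, 89.1% than Mapt, 88.1% than Dcx, 84.0% than Stmn4, 62.5% than Stmn3 and 42.6% than Fscn1. Stmn1 had an SD of 0.061, smaller than in all but 0.115% of genes, and 2.03% of like-level genes were below it. Its probe set was near the top of the scale. The other Stmn1 set had an SD of 0.15 and little relation to it (r = 0.18, n = 24 tumours), and with both averaged the SD was 0.084, with 6.69% of like-level genes below. By genotype, the SD of Mapt was 0.53 in deficient and 0.57 in wild type tumours. Within the title number series, that of Tubb3 was 0.16 in the lower and 0.22 in the higher. With probe sets averaged, 58.1% of like-level genes had a smaller SD than Dcx, 56.6% than Stmn3 and 11.4% than Fscn1. For the other genes except Stmn1 that share lay between 85.5% and 95.4%.

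Single tumours carried the extremes. Deficient tumour 6 was highest for Stmn2 (12.36), Stmn4 (10.21) and Map1b (11.33) and was above the median of the tumours for 10 of 10 genes. Wild type tumour 7 was above the median for 9 of 10 and second highest for Stmn2 (11.92) and Gap43 (11.18). At the other end, wild type tumour 1 was above the median for 0 of 10 genes and lowest for Stmn1 and Stmn3. The share of all genes above their median in each tumour was not counted, so these counts cannot be read as particular to these genes. Other tumours were extreme for a pair of genes. Deficient tumour 9 was highest for Mapt (7.96) and Stmn3 (11.51), and deficient tumour 15 for Gap43 (11.47) and Dcx (9.99). Wild type tumour 4 was highest for Tubb3 (11.28) and lowest for Mapt (5.77).

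**Figure D4:**
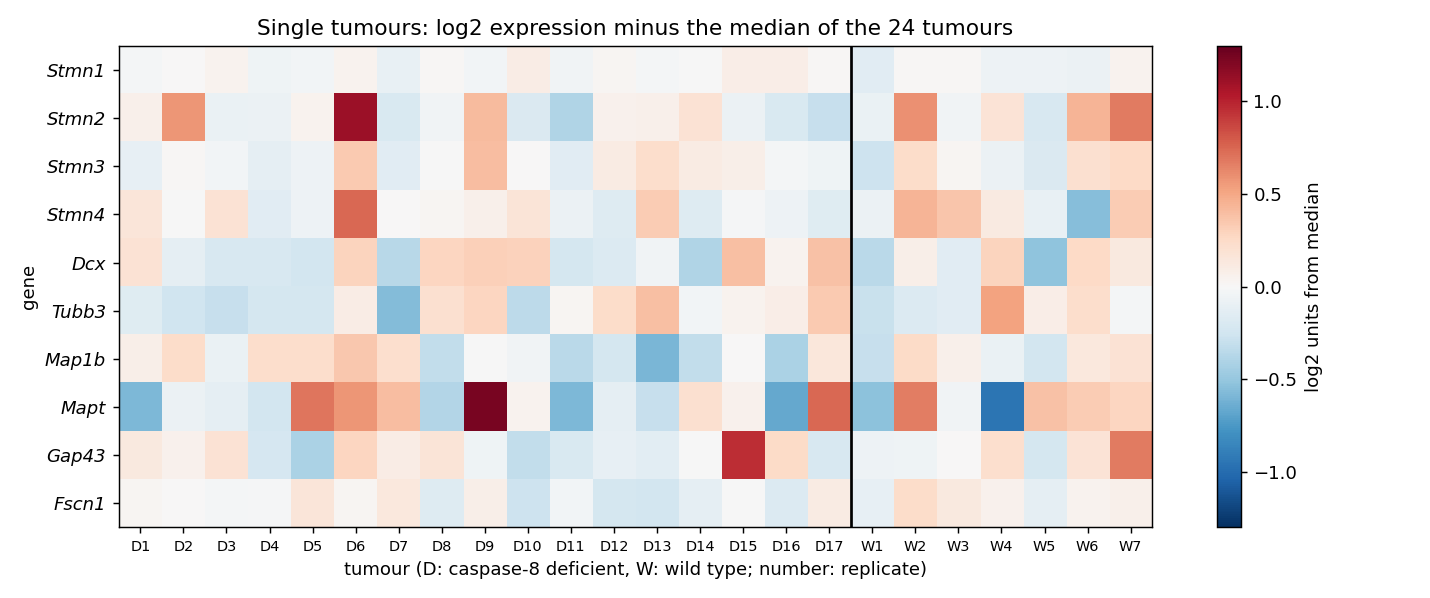
Log2 expression of each gene in each tumour minus that gene's median over the 24 tumours (colour, log2 units); columns are 17 deficient tumours (D) and then 7 wild type tumours (W). Deficient tumour 6 is above the median in all 10 rows and wild type tumour 1 in none, and the Mapt row has the widest span and the Stmn1 row the narrowest.

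Levels also differed between the title number series. The higher series minus the lower was 0.37 for Tubb3, with 10.90 ± 0.22 in the higher and 10.53 ± 0.16 in the lower series (SD, n = 14 and 10). It was -0.28 for Map1b, with 10.83 ± 0.24 in the higher and 11.10 ± 0.19 in the lower series, but 0.33 with its probe sets averaged. Dcx differed by 0.18, Stmn4 by -0.18, Stmn2 by -0.15 and Fscn1 by -0.13, and the other 4 genes by less than 0.09 either way. These values are a description without a test.

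Pairs of the genes were then compared across the 24 tumours. Of 45 pairs, 2 passed a permutation test of Pearson's r after Benjamini-Hochberg adjustment over the pairs, and the median r was 0.21. Stmn2 and Stmn3 varied together (r = 0.75, adjusted permutation p = 0.001125, n = 24; Spearman's rho = 0.73, adjusted permutation p = 0.00135). Without the 2 tumours farthest from the median r was 0.66, and within the lower and higher series it was 0.87 and 0.80. With probe sets averaged it was 0.84. Map1b and Fscn1 also varied together (r = 0.75, adjusted permutation p = 0.001125; rho = 0.73, adjusted permutation p = 0.00135). Here r was 0.68 without the 2 farthest tumours, 0.57 and 0.72 within the series, but -0.01 with probe sets averaged, so that this relation rested on the probe sets chosen. The most negative pair was Tubb3 and Map1b at -0.36, which did not pass (adjusted permutation p = 0.209). Its r was 0.27 in the lower and -0.06 in the higher series, and 0.41 with probe sets averaged, so it has no settled direction.

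**Figure D5:**
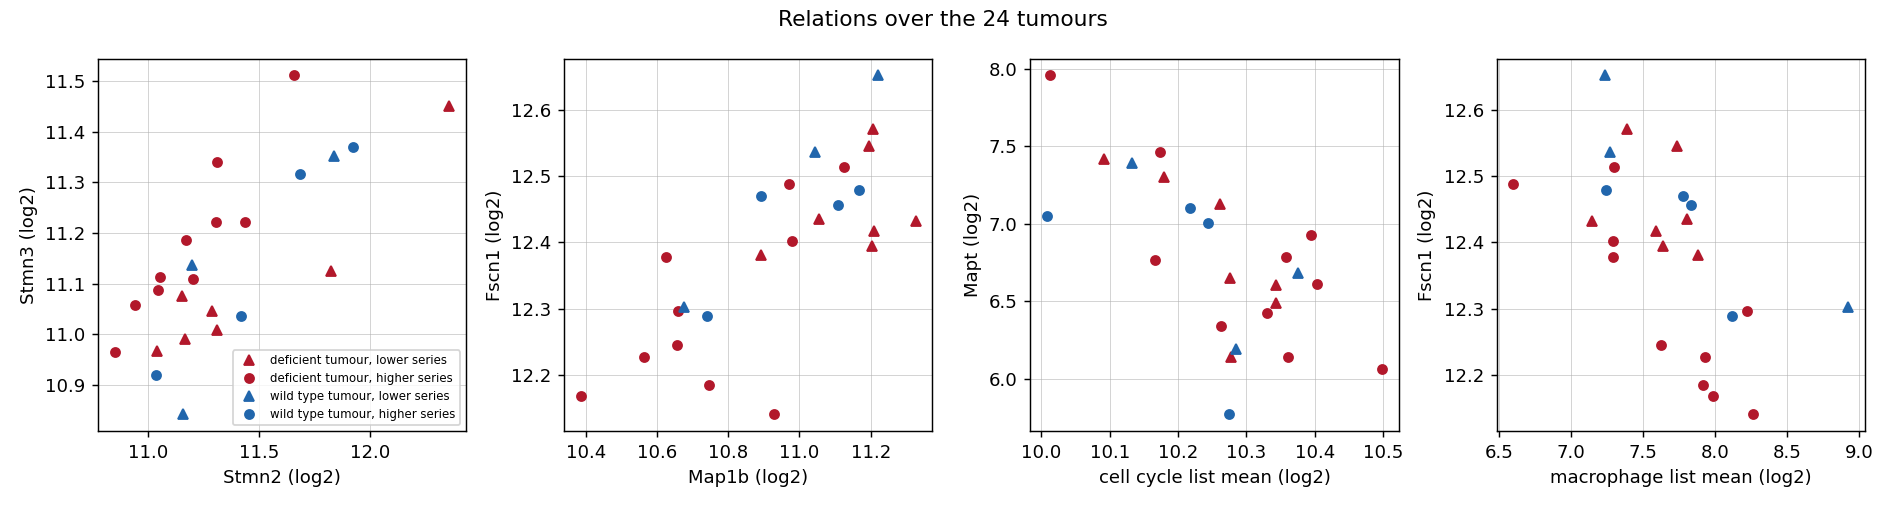
Log2 expression in single tumours for Stmn2 against Stmn3, Map1b against Fscn1, the cell cycle list mean against Mapt and the macrophage list mean against Fscn1 (x against y; red deficient, blue wild type; triangles lower and circles higher title number series). The first pairs rise together (r = 0.75 each) and the other panels fall (r = -0.69 and -0.62).

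Each gene was also set against 12 marker lists and the 3′ signal of array controls, 130 relations in all, of which 10 passed by Pearson's r after adjustment and had the same sign in both series, and 7 of the 10 passed by Spearman's rho too. Mapt was lower in tumours with higher cell cycle genes (r = -0.69, adjusted permutation p = 0.03402, n = 24; rho = -0.66, adjusted permutation p = 0.02817), and r was -0.62 without the 2 farthest tumours and -0.75 and -0.66 within the lower and higher series. It was also lower with higher fibroblast and matrix markers (r = -0.57, adjusted permutation p = 0.04901), a relation that passed neither by rank (rho = -0.53, adjusted permutation p = 0.0842) nor without the 2 farthest. Stmn1, which is known to be high in dividing cells, had r = 0.24 with the cell cycle list (adjusted permutation p = 0.4871). Its probe set was near the top of the scale and varied little (SD 0.061), so this value says little about Stmn1. With probe sets averaged r was 0.29.

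Fscn1 had the most relations. It was higher in tumours with higher sympathoadrenal markers (r = 0.62, adjusted permutation p = 0.03402; 0.57 and 0.62 within the series). It was lower with higher macrophage markers (r = -0.62, adjusted permutation p = 0.03402; -0.69 and -0.71 within the series), erythroid markers (r = -0.60, adjusted permutation p = 0.03402) and B cell markers (r = -0.55, adjusted permutation p = 0.04637). The erythroid relation passed neither by rank (rho = -0.57, adjusted permutation p = 0.05431) nor without the 2 farthest tumours. Over the tumours, erythroid list means (7 of 10 genes measured) ran from 5.16 to 7.06 (marrow, 10.22 to 10.57). B cell list means (9 of 10) were low, from 4.22 to 5.52 with a median of 4.50 (marrow, 6.30 to 8.03). Map1b was higher with sympathoadrenal markers (r = 0.60, adjusted permutation p = 0.03714) and lower with Schwann and glia markers (r = -0.62, adjusted permutation p = 0.03402), and neither passed without the 2 farthest. With probe sets averaged, the Fscn1 and Map1b relations shrank to between -0.19 and 0.13.

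Tubb3 was higher with Schwann and glia markers by Pearson's r (0.58, adjusted permutation p = 0.04637) but not by rank (rho = 0.40, adjusted permutation p = 0.2506), and lower with adipocyte markers (r = -0.65, adjusted permutation p = 0.03402). The first was 0.08 in the lower and 0.57 in the higher series, and neither passed without the 2 farthest tumours. Macrophage list means (14 of 14 genes measured) ran from 6.60 to 8.93 over the tumours and adipocyte list means (8 of 10) from 4.36 to 6.98. Schwann and glia list means (12 of 14), related to Tubb3 and Map1b above, ran only from 4.25 to 4.62 over the tumours. All were below the marrow list means of 4.84 to 5.15. They averaged 4.44 in the higher and 4.36 in the lower series, between which Tubb3 and Map1b also differed. Whether these list means track the cells they are named for was not tested, nor was their part in the genes' variation.

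For each gene, the 3 genes most like it over the 24 tumours were named by Pearson's r. Genes of the set described here were left out. Symbols of predicted loci and clones, such as Gm numbers, LOC and Rik names, were passed over. The r values are a description that shares arrays and normalization and has no test. Stmn2 was most like Trim33, Ensa and Mrpl24 (r = 0.85, 0.84 and 0.83), and Stmn3 most like Wdr47, Smarca1 and Ckmt1 (0.89, 0.84 and 0.84). Stmn4 was most like Ankrd13c, Trmt1l and Ahsa2 (0.81, 0.78 and 0.77), and Stmn1 most like Adcy1, Ccnjl and Celf1 (0.74, 0.72 and 0.71). Mapt went with Psd2, Ppfia2 and Gria2 (0.86, 0.84 and 0.84), of which Gria2 encodes an AMPA receptor subunit. Map1b went with C2cd5, Ccser2 and Hdgfl3 (0.85, 0.85 and 0.84), and Fscn1 with Dlg5, Eef1a2 and the kinesin Kif5a (0.84, 0.82 and 0.80). Gap43 had Tspan6, Elovl7 and Prl8a9 (0.80, 0.78 and 0.72), Dcx had Nf1, Ifna1 and Ncan (0.74, 0.71 and 0.71), and Tubb3 had Cdh18, Pramel1 and Neil1 (0.79, 0.79 and 0.79). Cdh18 and Prl8a9 averaged only 2.38 and 2.56 in tumours, near the floor of the array, and Pramel1 and Ifna1 3.88 and 4.13. Within the lower series r was 0.31 for Nf1, 0.36 for Neil1, 0.38 for Elovl7 and 0.21 for Prl8a9. Among the remaining named genes the lowest r in either series was 0.5988, for Ifna1 in the lower series. The genes were picked by r over these same tumours, so r within the series is no independent check.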

How the data were processed

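Biotinylated cRNA from 100 ng of total RNA was put on Affymetrix mouse arrays, per the labels' protocols. The authors deposited log2 values made with RMA in Partek 6.6, per the submitters' processing notes. RMA corrects background, normalizes quantiles and compresses low signals. The number of arrays limits the precision. Of 45101 probe sets, 64 were controls, 34945 had 1 symbol in the platform annotation, 932 several and 9160 none, and 34741 were named through the Entrez ID.

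Samples were grouped by their tissue and genotype labels and compared by limma (version 3.58.1, R 4.3.3; lmFit and eBayes, two-sided). Genotype was tested in each tissue alone, and tissue and interaction in a model of all 4 groups. Genes with an adjusted p (Benjamini-Hochberg, all 18193 genes) under 0.05 were called. No values were filtered. Correlations used 100000 permutations, or 20000 for the counts within a title number series, with ranks from SciPy 1.17.1. The fits were tested on simulated data. The members and gene lists were chosen with earlier results of these data known. Named genes were the members, the check genes and, for each member, the 3 most like it after the exclusions given above. Also named were the 4 largest called differences of each cytoskeleton list and the remaining fascins (added after their values were seen). Alternatives averaged probe sets, required a mean of at least 5, or changed scaling, array weights, the variance model or the samples included. A planned comparison of stathmin protein sequences was not run here.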

Additional observations from a re-analysis of the deposited data

How the results depend on the processing

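The 10 genes were called higher in tumours under every alternative run, and 0 of them were called by genotype or interaction under any. Of the single-gene values, 370 tissue results kept their direction, as did 311 of 340 genotype results in tumours and 98 of 110 in marrow. The filter, the variance model and the permutation test could not reverse a direction, and many other alternatives left out a single sample. These counts are therefore no measure of how firm a direction is. No paired analysis was possible because the labels give no replicate numbers shared between groups. The number of arrays, 3 against 2 in marrow, limits the genotype comparison there, and dim probe sets have little signal over background. The causes of the changes below were not tested, except that a filter or a subset leaves fewer genes or samples.

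Averaging probe sets turned the genotype difference in tumours to -0.0012 for Stmn1, -0.0239 for Mapt and 0.0163 for Fscn1, in marrow to -0.229 for Stmn2 and -0.0406 for Fscn1, the Map1b interaction to -0.0457 and the Map1b with Fscn1 correlation to -0.01337. In tumours, Stmn3 became -0.0101 with centred arrays and -0.0115 with array weights, and Mapt -0.1017 with array weights. In the lower series Stmn2 became 0.0502, Stmn3 -0.0158, Map1b 0.1759 and Gap43 0.0563, and in the higher series Stmn4 became 0.0451. In marrow, Stmn1 became 0.0175 with quantiles normalized again and Tubb3 -0.0658 with array weights. Leaving out 1 tumour moved the genotype difference from -0.032 to 0.1034 for Dcx, -0.1366 to 0.0163 for Gap43, -0.1273 to 0.1428 for Mapt, -0.043 to 0.0451 for Stmn3, -0.1323 to 0.0332 for Stmn4 and -0.1053 to 0.0302 for Tubb3. Leaving out 1 marrow sample moved it from -0.0141 to 0.3388 for Fscn1, -0.0585 to 0.5085 for Mapt, -0.157 to 0.0623 for Stmn1, -0.0152 to 0.287 for Stmn2, -0.1846 to 0.1846 for Stmn4 and -0.2184 to 0.3392 for Tubb3. The Map1b interaction ran from -0.0198 to 0.4489.

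Over all genes, 9170 were called between tissues with the filter, against 13899. In marrow 2 were called with probe sets averaged and 2 with the filter, against 4. The interaction called 58 genes, but 19 with the filter, 124 with quantiles normalized again, 13 with array weights and 12 in the higher series, and from 32 (without wild type marrow sample 1) to 422 (without wild type marrow sample 2) with 1 sample left out. Of the gene pairs, 1 passed in the higher series, against 2. Of the marker list relations, 2 passed with probe sets averaged, 1 in the lower series, 0 in the higher and 5 without the 2 farthest tumours, against 10.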
